A study of Mus musculus with 10 samples.

Results

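The genes described here encode the oxygen-sensing machinery of the cell in the hearts of male mice: the hypoxia-inducible factor subunits Hif1a, Epas1, Hif3a and Arnt, the ubiquitin ligase subunit Vhl, the prolyl hydroxylases Egln1, Egln2 and Egln3, and the induced genes Bnip3 and Ddit4. These 10 genes, of 55335 in the deposited table, were listed by name and read by Ensembl identifier. They were chosen by their role in the pathway and with their FPKM in the same PAMH and control hearts already known, so their differences between groups are descriptions and support nothing by themselves. The adjusted p-values printed beside them come from 1 fit over all tested genes. RNA of heart tissue was sequenced from wild-type males of 2 groups, 5 samples each, born to dams given anti-Müllerian hormone during pregnancy (PAMH) or the vehicle, phosphate-buffered saline. Mice exposed in this way serve to model traits of polycystic ovary syndrome passed to offspring. The labels give neither age nor litter and do not tie a sample to an animal, so p-values measure only the spread between these samples, which may be technical or shared within litters.

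Hypoxia-inducible factors (HIFs) are transcription factors built of an oxygen-regulated alpha subunit and the constant partner ARNT. In the presence of oxygen, prolyl hydroxylases of the EGLN family, which need iron and 2-oxoglutarate, mark the alpha subunit, and the VHL ligase complex then directs it to the proteasome. When oxygen is short the alpha subunit persists and raises genes of glycolysis, vessel growth, iron uptake and mitochondrial removal, among them Egln1 and Egln3 themselves, which close a negative feedback loop. Control of the alpha subunits is therefore largely at the protein level, which RNA does not measure.

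Values are FPKM, fragment counts normalised to transcript length and library size, so levels of different genes can be compared per length. Among genes with a single annotated transcript, low FPKM multiplied by transcript length gathered at multiples of 1 value per sample. Read as the worth of 1 fragment, that value gave an estimated 18800000 to 26600000 fragments in control and 15800000 to 20100000 in PAMH samples. PAMH replicate 4 stood apart, so its own estimate is the least certain. It had 17 such values within 0.2% of 1 step and 26 at 5 steps, against 93 and 36 in PAMH replicate 5 and at least 189 and at most 22 in the other 8 samples. PAMH replicate 4 also had the fewest genes above 0 (16113) and the highest hemoglobin sum (859 FPKM). Some values also lay midway between 0 and 1 step: 8 in PAMH replicate 4, 20 in PAMH replicate 5 and 26 to 48 in the other 8 samples. The reading of 1 step as 1 fragment, and every fragment number given here, is therefore uncertain. Cardiomyocyte markers were high in every sample, with a summed level of 10054 to 12541 FPKM in control and 8887 to 14787 FPKM in PAMH hearts over 8 genes, and none of them past the threshold. Adipocyte markers, of which Lep was listed at 0 throughout, summed to 0.634 FPKM at most. Skeletal muscle markers summed to 0.552 to 0.810 FPKM in control and 1.09 to 1.86 FPKM in PAMH hearts, without overlap. Among them Tnni2 had 0.442 to 0.723 FPKM in control and 0.918 to 1.38 FPKM in PAMH hearts. No gene of either list was tested.

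Across the genome 584 of 9439 tested genes (6.19%) differed at an adjusted p under 0.05 by limma, 467 higher (4.95%) and 117 lower (1.24%) in PAMH hearts. Under median ratio scaling that split was 218 higher and 212 lower, with quantile normalization 234 and 246. Differences are on the log2(FPKM + 1) scale, which understates the change of low genes, and those of the deposited FPKM stand on a median over all tested genes of 0.07 that median ratio scaling moved to -0.0037. Of the 10 genes 9 had the mean of at least 1 FPKM that was required for the test, and Hif3a did not. Egln3 and Bnip3 were past the threshold, both higher, against 4.95% of all tested genes called higher. The other 7 were not past it, and no gene of the set was called lower. An unadjusted p under 0.05 was reached by 5 of the 9 (Egln1, Egln2, Egln3, Bnip3 and Ddit4) and by 24.0% of all tested genes. The median difference of the 9 genes was 0.10, beside 0.07 over all tested genes. The same medians of the absolute difference were 0.23 and 0.12. The differences with their 95% intervals are drawn in the plot of the 9 tested genes.

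**Figure D1:**
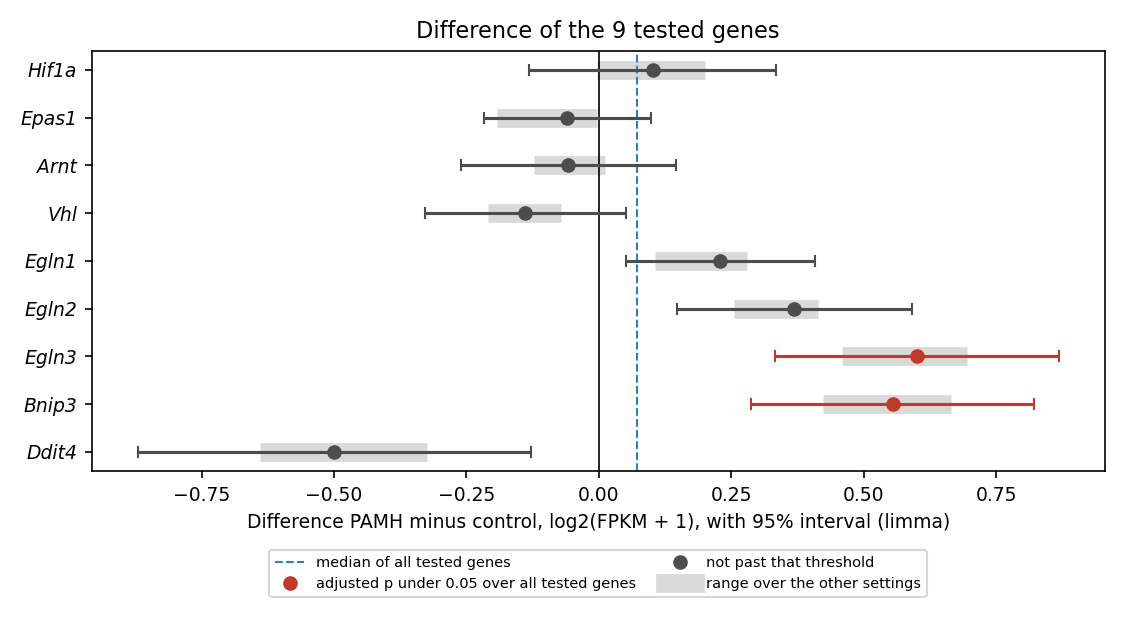
Difference between PAMH and control hearts on the log2(FPKM + 1) scale for the 9 tested genes (points, limma estimates; bars, 95% intervals; grey bands, range over 21 other settings; dashed line, median of all tested genes). Egln3 at 0.60 and Bnip3 at 0.55 are past the adjusted threshold, the intervals of Hif1a, Epas1, Arnt and Vhl include 0, and Ddit4 lies at -0.50 with the widest interval.

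None of the HIF subunit genes passed the test, and their ranges overlapped between the groups. Epas1, which encodes HIF-2 alpha, a subunit abundant in endothelium, was the most expressed of the alpha subunits. It stood at 27.3, 29.8, 26.4, 30.7 and 28.3 FPKM in control replicates 1 to 5 and at 27.6, 30.6, 27.1, 26.6 and 24.8 FPKM in PAMH replicates 1 to 5. The groups overlapped, and only PAMH replicate 5 lay below every control. Its difference was -0.06 (SE 0.07, 95% interval -0.22 to 0.10, adjusted p = 0.657). Under median ratio scaling the difference of Epas1 was -0.15 (limma adjusted p = 0.2045) and with quantile normalization -0.19 (limma adjusted p = 0.1905). The 8 endothelial markers, measured beside it because Epas1 is an endothelial gene, had a median difference of -0.14 with none past the threshold, and their summed level was 81.8 to 102 FPKM in control and 74.0 to 92.8 FPKM in PAMH hearts. Their part in the level of Epas1 was not tested. In bulk tissue, fewer cells of a type and less RNA per cell cannot be told apart.

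Hif1a, the alpha subunit that acts in nearly all cell types, was measured at 6.12, 6.85, 6.35, 7.84 and 7.18 FPKM in the controls and at 8.18, 7.99, 7.67, 5.41 and 8.21 FPKM in the PAMH hearts. PAMH replicate 4 was the lowest of all 10 samples, while replicates 1, 2 and 5 were above every control. The difference was 0.10 (SE 0.11, 95% interval -0.13 to 0.34, adjusted p = 0.603). Without PAMH replicate 4 it was 0.20 (adjusted p = 0.123). With quantile normalization it turned sign, at -0.0041. An antisense gene, Gm15283, spans the whole of Hif1a (chromosome 12, 73901375 to 73947530), and its own mean was 0.1303 FPKM. Whether counting used the strand is not given in the sources used here, so reads of the pair cannot be assigned with certainty.

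Hif3a, whose product can bind ARNT without the full activity of the other alpha subunits, was scarcely expressed. Control values ranged from 0.194 to 0.311 FPKM and PAMH values from 0.0631 to 0.321 FPKM, apart from PAMH replicate 4, where the gene was listed at 0. The groups overlapped and the gene was below the test's filter. Arnt, the shared partner of the alpha subunits, ranged from 1.74 to 2.1999 FPKM in control and from 1.34 to 2.28 FPKM in PAMH hearts. The lowest of all was again PAMH replicate 4, and the difference of -0.06 (SE 0.09, adjusted p = 0.745) was 0.01 without that sample.

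Of the summed FPKM of the 3 alpha subunit genes, the share of Epas1 was 80.05% ± 0.942 in the controls and 78.1% ± 3.26 in the PAMH hearts (SD, n = 5 each). Hif1a held 19.3% ± 0.915 and 21.4% ± 2.91. The ranges of both shares overlapped between the groups. Vhl, the subunit that recognises hydroxylated HIF alpha, ranged from 2.34 to 3.16 FPKM in control and from 2.05 to 2.95 FPKM in PAMH hearts. PAMH replicates 2, 4 and 5 were below every control and replicate 1 above 4 of the 5. The difference was -0.14 (SE 0.09, 95% interval -0.33 to 0.05, adjusted p = 0.358). For Vhl median ratio scaling gave -0.21 (limma adjusted p = 0.164) and quantile normalization -0.19 (limma adjusted p = 0.146).

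The prolyl hydroxylase genes all had positive differences, as did 67.3% of all tested genes. Egln1, which encodes PHD2, the main oxygen sensor of most tissues, was the most abundant gene of the whole set. Its values were 93.9, 103.9, 96.3, 89.9 and 96.5 FPKM in the controls and 120, 124, 97.7, 123 and 102 FPKM in the PAMH hearts. Replicates 1, 2 and 4 of PAMH were above every control, and replicates 3 and 5 lay within the control range. The difference was 0.23 (SE 0.08, 95% interval 0.05 to 0.41) and not past the threshold (limma adjusted p = 0.112). It passed in 2 of 21 other settings, without PAMH replicate 3 (0.28, adjusted p = 0.0329) and with sample weights (adjusted p = 0.0341). Median ratio scaling lowered it to 0.13 (limma adjusted p = 0.311) and quantile normalization to 0.105 (limma adjusted p = 0.412). Egln1 has 1 annotated transcript of 3594 bases (chromosome 8, 124908587 to 124949324), and an estimated 6469 to 8978 fragments lay behind each value.

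Egln2, which encodes PHD1, was the least abundant of the 3. Controls 1 to 5 had 9.998, 11.8, 12.3, 9.59 and 10.9 FPKM and the PAMH hearts 14.8, 12.7, 13.7, 18.1 and 12.999 FPKM. In the FPKM as deposited, every PAMH value was above every control, with replicate 4 the highest. Whether the groups stay apart under other scalings was not tested. Its difference was 0.37 (SE 0.10, 95% interval 0.15 to 0.59), and it narrowly missed the threshold (adjusted p = 0.0528). It passed in 5 of 21 other settings: without PAMH replicate 3 (0.38, adjusted p = 0.0460), with the filter at 5 FPKM (adjusted p = 0.0332), after rescaling to equal sums (adjusted p = 0.0416), with sample weights (adjusted p = 0.0311) and with robust empirical Bayes (adjusted p = 0.04996). Median ratio scaling lowered the difference of Egln2 to 0.2775 (limma adjusted p = 0.1483) and quantile normalization to 0.2557 (limma adjusted p = 0.1299).

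Egln3, which encodes PHD3, an isoform well expressed in heart and strongly induced by hypoxia in many cells, rose in PAMH hearts. Its levels were 26.8, 32.3, 24.7, 24.8 and 30.4 FPKM in control replicates 1 to 5 and 41.4, 51.4, 32.4, 49.3 and 40.3 FPKM in PAMH replicates 1 to 5. The groups did not overlap, although PAMH replicate 3 (32.44 FPKM) was barely above control replicate 2 (32.32 FPKM). Such a separation was found in 8.44% of all tested genes (6.74% with PAMH higher, 1.71% lower), and of the set Egln2 and Egln3 had it. The mean went from 27.8 ± 3.41 to 43.0 ± 7.60 FPKM (SD, n = 5 each), a difference of 0.60 (SE 0.12, 95% interval 0.33 to 0.87, adjusted p = 0.0158). The call was kept in 19 of 21 other settings. It ended without a filter on low values (adjusted p = 0.0618) and without PAMH replicates 4 and 5 together (0.55, adjusted p = 0.0578). An estimated 1315 to 2701 fragments of its single annotated transcript of 2662 bases (chromosome 12, 54178981 to 54203860) were behind each value.

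**Figure D2:**
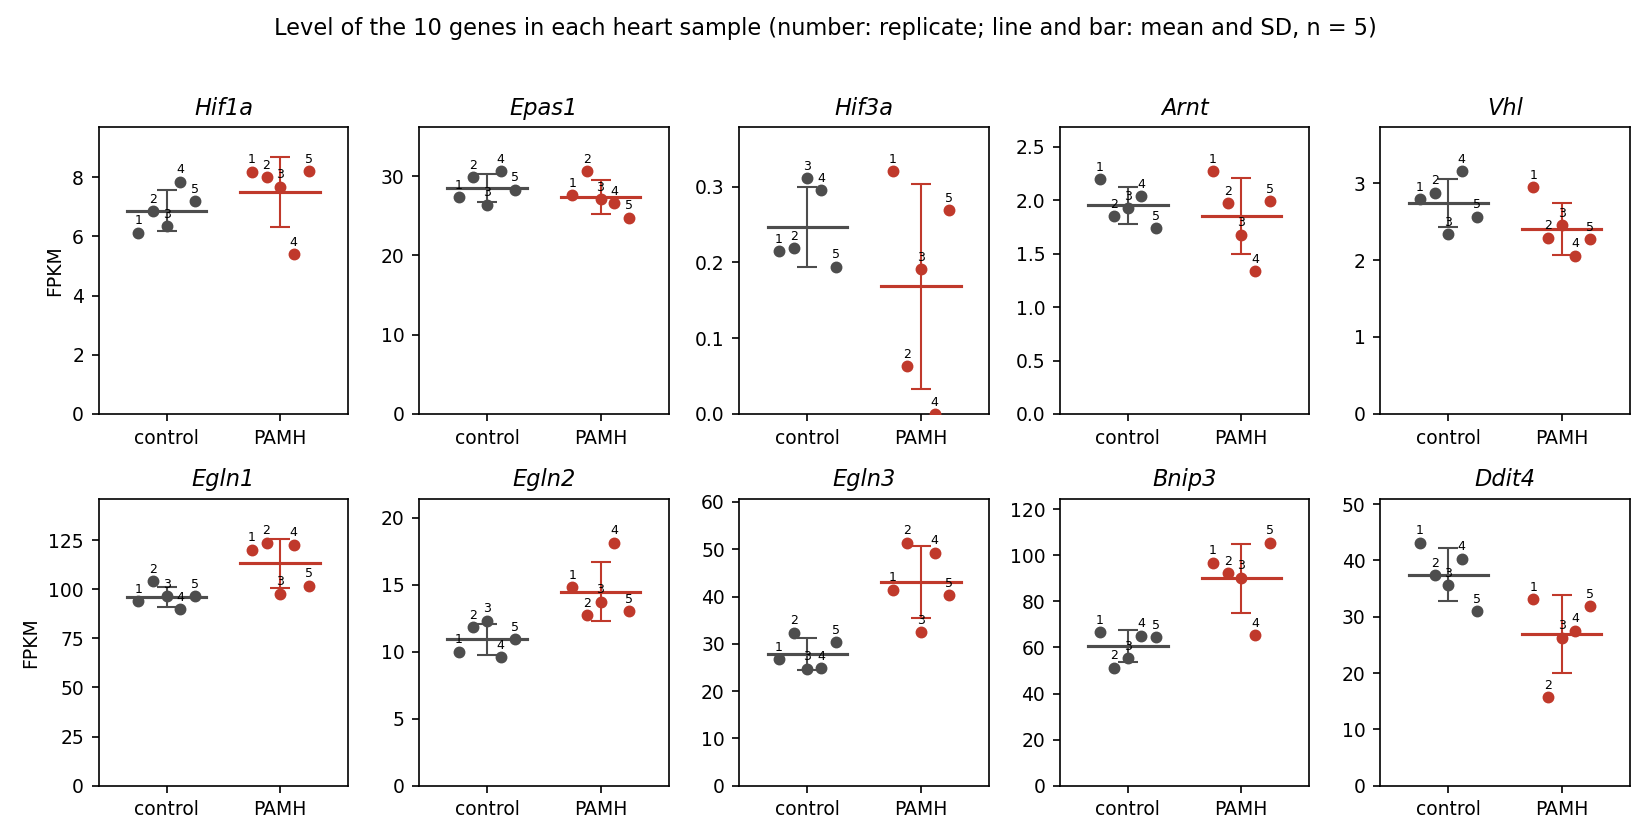
FPKM of each of the 10 genes (1 panel each, linear axis from 0) in the 5 control and 5 PAMH heart samples, with the replicate number above each point and the group mean and SD as line and bar. Egln2 and Egln3 show no overlap between the groups, Bnip3 overlaps only through PAMH replicate 4 at 65.3 FPKM, and the HIF subunit genes overlap throughout.

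The shares of the 3 prolyl hydroxylase genes in their sum, which were not tested, lay apart between the groups for Egln1 and Egln3. Their summed level averaged 135 ± 8.87 FPKM over controls and 171 ± 20.4 FPKM over PAMH hearts (SD, n = 5 each), and the ranges, 124 to 148 FPKM and 144 to 190 FPKM, overlapped only through PAMH replicate 3. Egln1 held 70.0% to 72.3% of the sum in the controls and 64.5% to 68.1% in the PAMH hearts. Egln3 held 18.5% to 22.1% in the controls and 22.5% to 27.4% in the PAMH hearts. Neither range overlapped with that of the other group. Shares of 1 sum depend on each other, so these are not separate results. The mean FPKM of Egln1 was itself higher in PAMH hearts (113) than in controls (96.1). A share is formed within a sample, so it is untouched by how samples are scaled to each other. The share of Egln2 was 7.65% to 9.23% and 6.77% to 9.54%, which overlapped.

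**Figure D3:**
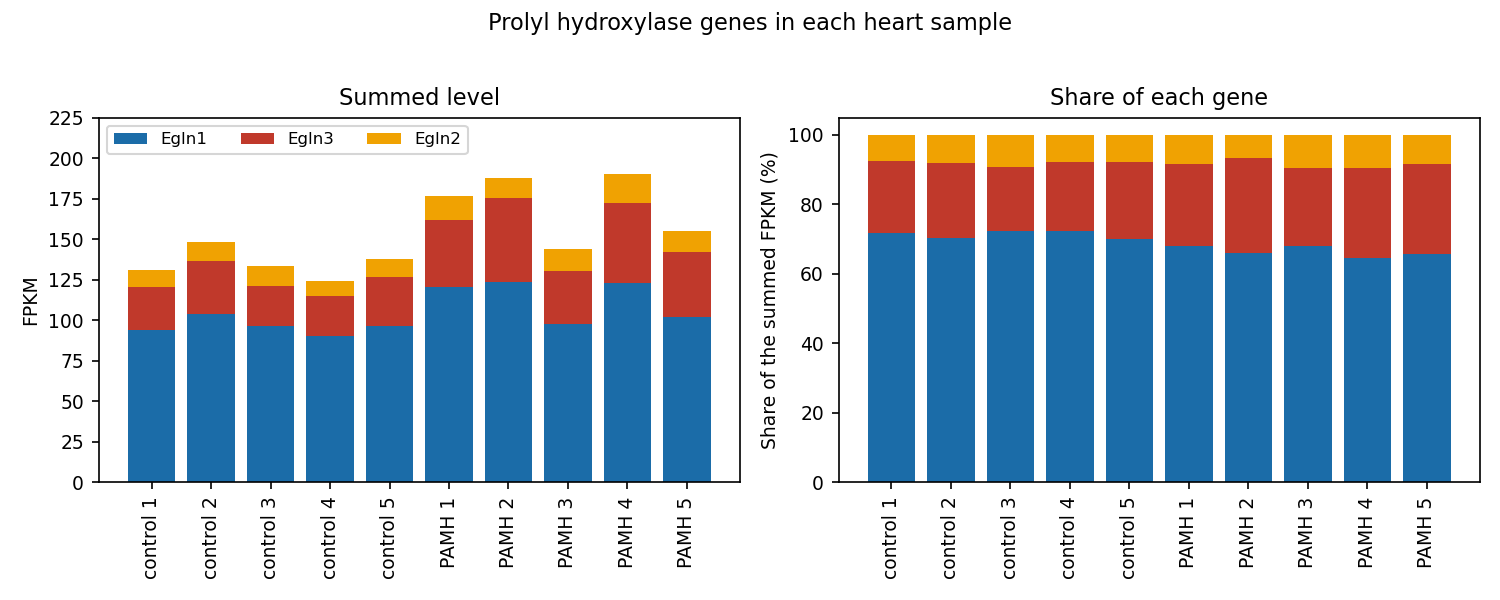
Stacked FPKM (left) and share of the summed FPKM in percent (right) of Egln1, Egln3 and Egln2 in each of the 10 heart samples. PAMH replicates 1, 2, 4 and 5 have larger sums than every control, and Egln1 takes at most 68.1% in PAMH against at least 70.0% in control hearts.

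Bnip3, a mitochondrial outer membrane protein that promotes mitophagy and cell death and is a classical HIF-1 target, rose in PAMH hearts. It was at 66.5, 51.2, 55.3, 65.2 and 64.6 FPKM in controls 1 to 5 and at 96.8, 92.4, 90.3, 65.3 and 106 FPKM in PAMH replicates 1 to 5. PAMH replicates 1, 2, 3 and 5 were above every control. PAMH replicate 4 lay inside the control range. Means were 60.6 ± 6.85 and 90.1 ± 15.05 FPKM (SD, n = 5 each), and the difference was 0.55 (SE 0.12, 95% interval 0.29 to 0.82, adjusted p = 0.0214). The call was kept in 14 of 21 other settings, with differences from 0.42 to 0.67 over all of them. It ended under median ratio scaling (0.46, adjusted p = 0.0651), quantile normalization (0.42, adjusted p = 0.125) and no filter (adjusted p = 0.0789), with the replicate number as a block (adjusted p = 0.0551), and without control replicate 3 (0.52, adjusted p = 0.0618), PAMH replicate 1 (0.52, adjusted p = 0.0595) or PAMH replicate 5 (0.49, adjusted p = 0.0552). The paralogue Bnip3l, which encodes NIX, another mitophagy receptor, did not pass, at 11.2 ± 0.645 and 10.3 ± 0.957 FPKM (difference -0.11, SE 0.08, adjusted p = 0.404). Bnip3 held 82.3% to 86.0% of the sum of the pair in control and 87.4% to 91.7% in PAMH hearts, without overlap. Within Bnip3 (chromosome 7, 138890836 to 138909519) lie the pseudogene Gm18258 and the antisense gene Gm45507, with means of 0.354 and 0.00366 FPKM.

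Ddit4, also called Redd1, is induced by hypoxia, glucocorticoids and energy stress and restrains the growth kinase complex mTORC1. Its mean was lower in PAMH hearts, where those of Bnip3 and Egln3 were higher, but it did not pass the test. Control replicates 1 to 5 had 43.2, 37.3, 35.5, 40.3 and 31.0 FPKM, and the PAMH hearts had 33.2, 15.7, 26.2, 27.5 and 31.8 FPKM. PAMH replicates 2, 3 and 4 were below every control and replicate 2 was the lowest of all. The difference was -0.50 (SE 0.17, 95% interval -0.87 to -0.13, adjusted p = 0.101). It was negative and not past the threshold in 21 of 21 other settings, between -0.64 with quantile normalization and -0.32 without PAMH replicate 2. Its spread among PAMH hearts, a coefficient of variation of 25.7%, was the largest of the 9 tested genes. Estimated fragments behind its values ran from 542 in PAMH replicate 2 to 2015 in control replicate 1.

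In control hearts the order of mean levels was Egln1, Bnip3, Ddit4, Epas1, Egln3, Egln2, Hif1a, Vhl, Arnt and Hif3a, from 96.1 to 0.247 FPKM. The control ranges of neighbours in this order overlapped only for Epas1 (28.5 ± 1.74 FPKM) and Egln3 (27.8 ± 3.41 FPKM). In PAMH hearts Egln3 was above Epas1 in each of the 5 samples.

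Promoters of the genes that carried the largest differences are printed to show where the HIF core lies. HIF binds the 5-base core ACGTG or GCGTG, searched on both strands in RefSeq promoter windows of build GRCm38.p6 that reach from 250 bases before to 50 after a gene's start, with CACGTG counted on both strands. Windows were found for 9 of the 10 genes, and Epas1 was not matched. Capitals mark the core in either orientation, and each line reads 5′ to 3′ on the gene's strand, which is minus for all 4. Bnip3 lies at chr7:138909457-138909756, Egln2 (its first start) at chr7:27166753-27167052, Egln3 at chr12:54203825-54204124 and Ddit4 at chr10:59951721-59952020.
Bnip3: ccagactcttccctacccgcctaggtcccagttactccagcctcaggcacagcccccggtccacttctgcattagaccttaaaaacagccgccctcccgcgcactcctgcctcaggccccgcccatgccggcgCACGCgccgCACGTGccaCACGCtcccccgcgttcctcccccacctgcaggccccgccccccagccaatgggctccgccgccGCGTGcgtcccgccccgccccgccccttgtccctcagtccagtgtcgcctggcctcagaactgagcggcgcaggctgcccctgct
Egln2: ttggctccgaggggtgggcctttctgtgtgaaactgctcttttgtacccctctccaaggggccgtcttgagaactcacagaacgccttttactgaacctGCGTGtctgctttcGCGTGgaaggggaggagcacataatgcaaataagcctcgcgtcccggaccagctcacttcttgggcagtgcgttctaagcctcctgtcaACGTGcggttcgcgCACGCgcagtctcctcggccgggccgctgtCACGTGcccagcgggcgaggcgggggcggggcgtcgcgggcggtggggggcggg
Egln3: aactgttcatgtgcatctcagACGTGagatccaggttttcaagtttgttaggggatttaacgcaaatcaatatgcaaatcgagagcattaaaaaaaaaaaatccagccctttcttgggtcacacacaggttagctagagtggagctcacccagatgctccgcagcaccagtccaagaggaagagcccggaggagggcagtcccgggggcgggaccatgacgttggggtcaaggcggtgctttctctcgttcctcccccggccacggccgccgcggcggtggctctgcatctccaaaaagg
Ddit4: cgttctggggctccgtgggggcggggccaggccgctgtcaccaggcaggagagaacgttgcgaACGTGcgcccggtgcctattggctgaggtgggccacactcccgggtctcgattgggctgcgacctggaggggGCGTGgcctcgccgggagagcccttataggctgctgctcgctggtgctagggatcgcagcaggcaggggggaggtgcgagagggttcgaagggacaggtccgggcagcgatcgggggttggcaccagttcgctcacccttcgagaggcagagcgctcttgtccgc

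Bnip3 had 5 matches at 4 places, which begin at -117, -108, -99 and -35 from its start, and Egln2 had 6 matches at 5 places in this window. At least 5 matches were found in 1.66% of all 32851 promoter windows, and at least 1 in 43.8%. Egln3 had 1 match, 229 bases before its start, and Ddit4 had 2. A relation between the number of matches and the differences was not tested. Egln1 had 2 matches, Hif1a 3, Hif3a 2, Arnt 1 and Vhl none in these windows. The windows differed in base composition, from 49.3% G and C in the second window of Egln2 and 54.7% in Egln3 to 71.7% in Bnip3 and 86% in Egln1. The glucocorticoid receptor core ACANNNTGT (in 6.85% of all windows) and the forkhead core TGTTTAC (in 3.65%) were in none of the windows of the 9 genes. A match is a run of letters and not a site of binding, and its absence says only that these letters are not in the window.

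**Figure D4:**
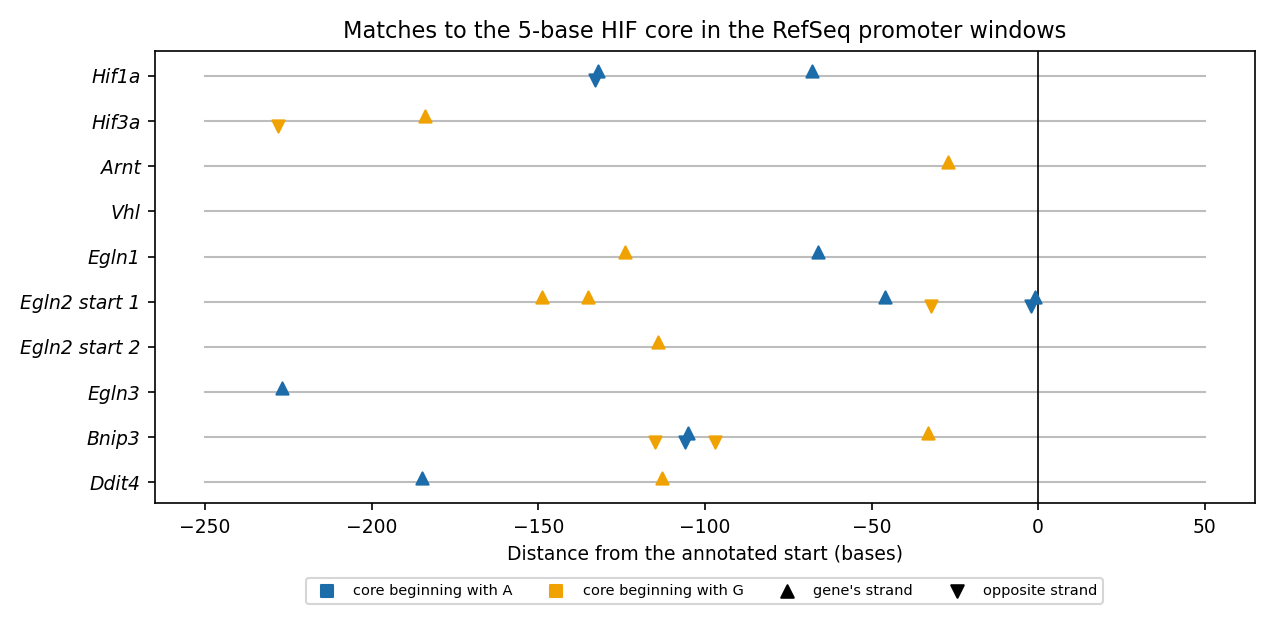
Position of matches to the HIF core in the RefSeq promoter windows of 9 genes, as distance in bases from the annotated start (Egln2 has 2 starts); triangles point up for the gene's strand and down for the opposite one, blue for the core that begins with A and orange for that with G. Bnip3 and the first start of Egln2 hold 5 and 6 matches, Egln3 holds 1 and Vhl none.

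Of 18 other regulators of the pathway, 16 were tested, 1 was higher and 15 did not pass, beside 6.19% called among all tested genes, with a median difference of 0.05 that was -0.02 under median ratio scaling and -0.04 with quantile normalization. Hif1an, the asparaginyl hydroxylase that blocks the coactivator contact of HIF alpha, had 10.3 ± 0.370 FPKM in control and 10.2 ± 0.675 FPKM in PAMH hearts (difference -0.02, 95% interval -0.16 to 0.12, adjusted p = 0.882). Its sign turned in 4 of 21 other settings. The 1 higher gene was Rack1, a ribosomal scaffold protein that also binds HIF-1 alpha, from 39.7 ± 1.78 to 49.8 ± 5.36 FPKM (adjusted p = 0.0390). That call was kept in 7 of 21 other settings. It ended without any 1 of PAMH replicates 1, 2, 4 or 5 or of the 5 controls (adjusted p up to 0.101 over these). It also ended under median ratio scaling, with quantile normalization, without a filter, with the replicate number as a block and without PAMH replicates 4 and 5 together. The largest limma adjusted p of Rack1 over all settings was 0.129.

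Among 55 known HIF targets, 45 were tested, of which 7 were higher, 2 lower and 36 not past the threshold, where 4.95% of all tested genes were higher and 1.24% lower. Their median difference was 0.14. The 15 tested targets of glucose use had a median of 0.18, and 3 rose. Differences were positive for 15 of them in the FPKM as deposited, where 67.3% of all tested genes had a positive difference. They were positive for 13 under median ratio scaling (median 0.09) and for 10 with quantile normalization (median 0.05). Hexokinase 1 (Hk1) rose from 9.55 ± 0.990 to 15.7 ± 3.401 FPKM (difference 0.65, adjusted p = 0.0159), phosphoglycerate mutase (Pgam1) from 15.8 ± 1.13 to 25.1 ± 4.15 FPKM (0.62, adjusted p = 0.00818) and platelet phosphofructokinase (Pfkp) from 2.22 ± 0.162 to 2.92 ± 0.225 FPKM (0.28, adjusted p = 0.0323). The groups did not overlap for any of these 3, and PAMH replicate 4 was the highest sample for each. Pgam1 was called in 21 of 21 other settings and Hk1 in 18, lost without a filter (adjusted p = 0.0647), with the replicate number as a block (0.0637) and without PAMH replicates 4 and 5 together (0.0562). Pfkp was called in 8 of 20. Its call ended without any 1 of control replicates 1, 3, 4 or 5 or PAMH replicates 1, 2 or 5 (adjusted p up to 0.0903 over these). It also ended under median ratio scaling, with quantile normalization, without a filter, with the replicate number as a block and without PAMH replicates 4 and 5 together. Over all settings its limma adjusted p was at most 0.0945. Slc2a1, the glucose transporter GLUT1, had 2.34 ± 0.202 and 3.12 ± 0.396 FPKM without overlap and narrowly missed the threshold (0.30, adjusted p = 0.0504). It passed in 4 of 20 other settings. These were without PAMH replicate 3 (adjusted p = 0.0257), with a pseudocount of 0.1, with sample weights and after rescaling to equal sums. Over the 20 settings the difference of Slc2a1 ran from 0.21 to 0.39, with a limma adjusted p of at most 0.145. Ldha and Pgk1, the lactate dehydrogenase and phosphoglycerate kinase genes often read as HIF-1 targets, had differences of 0.09 (95% interval -0.14 to 0.31, adjusted p = 0.644) and 0.04 (95% interval -0.12 to 0.20, adjusted p = 0.789), and each turned sign in 3 of 21 other settings.

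Of the 30 other tested targets 4 rose and 2 fell, with a median of 0.11 that was -0.0020 with quantile normalization. The transferrin receptor gene Tfrc, which admits iron to the cell, went from 8.77 ± 1.59 to 19.2 ± 1.10 FPKM (difference 1.06, adjusted p = 0.000379). Bhlhe40, a hypoxia-responsive repressor, rose from 4.29 ± 0.717 to 8.34 ± 2.82 FPKM (0.78, adjusted p = 0.0222), the mitochondrial protein gene Fam162a from 44.0 ± 4.42 to 59.5 ± 5.12 FPKM (0.43, adjusted p = 0.0144) and adrenomedullin (Adm), a vasodilator peptide, from 1.89 ± 0.345 to 2.94 ± 0.585 FPKM (0.44, adjusted p = 0.0427). In the other direction, the lipase inhibitor gene Angptl4 fell from 3.81 ± 1.61 to 0.482 ± 0.440 FPKM (-1.68, and -2.92 with a pseudocount of 0.1, adjusted p = 0.00190 and 0.00248) and Apln, an endothelial peptide, fell from 4.80 ± 0.567 to 3.31 ± 0.514 FPKM (-0.43, adjusted p = 0.0225). Vegfa, the central angiogenic target, did not pass at 25.2 ± 5.86 and 30.0 ± 4.93 FPKM (0.26, 95% interval -0.08 to 0.59, adjusted p = 0.337). Tfrc and Angptl4 were called in every other setting where they were tested, and Fam162a in 20 of 21, lost without PAMH replicates 4 and 5 together (adjusted p = 0.0558). Bhlhe40 was called in 15 of 21, and it was lost without control replicate 1, 4 or 5 or PAMH replicate 1, without a filter and with the replicate number as a block (adjusted p up to 0.0938). Apln was called in 13 of 20, and it was lost without control replicate 1, 3 or 4, PAMH replicate 5 or PAMH replicates 4 and 5 together, without a filter and after rescaling to equal sums (up to 0.0804). Adm was called in 8 of 20 and lost its call without control replicate 1, 2, 4 or 5 or PAMH replicate 1, 2 or 4 (up to 0.107). Settings that ended it also included no filter, the replicate number as a block and rescaling to equal sums without mitochondrial genes. Over all settings its limma adjusted p was at most 0.1295.

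**Figure D5:**
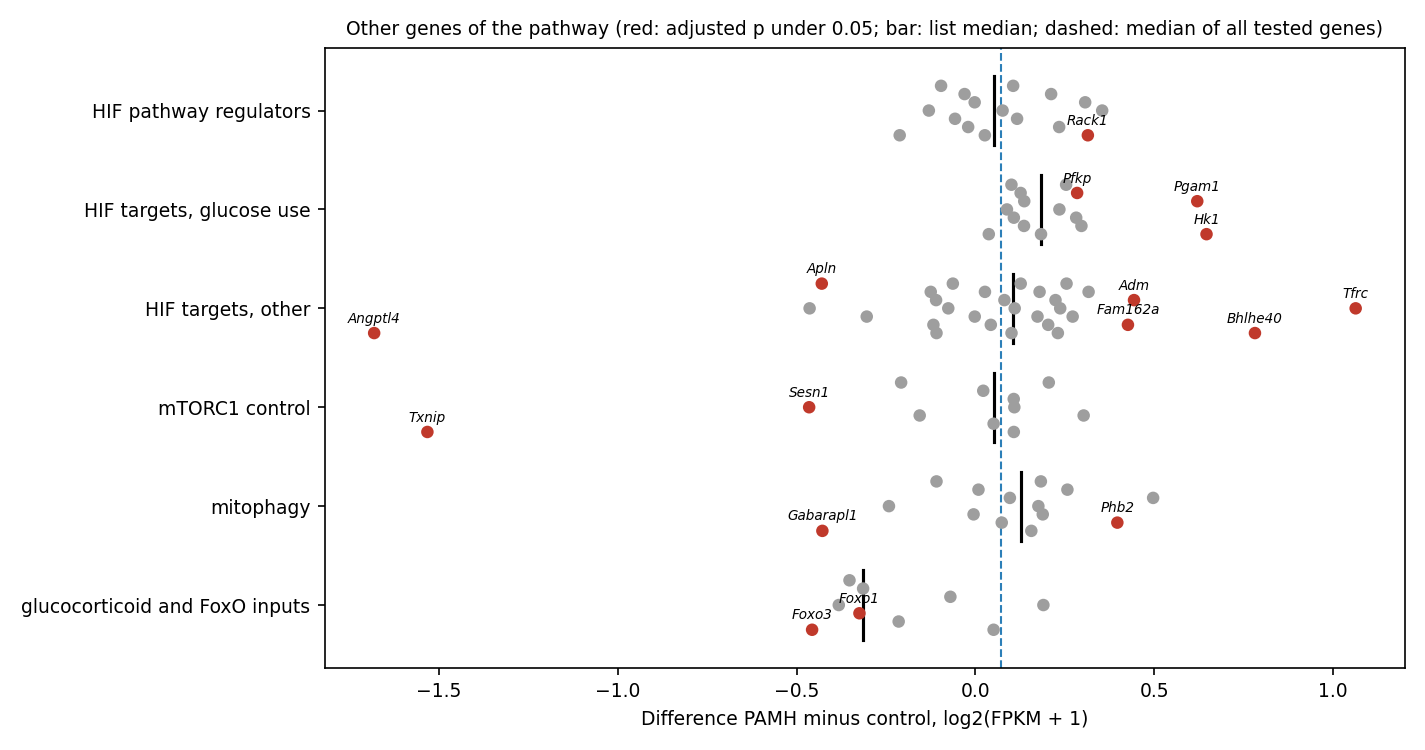
Difference between PAMH and control hearts (log2(FPKM + 1)) of each tested gene in 6 pathway lists; red points with names are past the adjusted threshold, black bars are list medians and the dashed line is the median of all tested genes. In the FPKM as deposited, 15 of 15 HIF targets of glucose use lie above 0, beside 67.3% of all tested genes. With quantile normalization 10 of 15 do. The other HIF targets reach from -1.68 (Angptl4) to 1.06 (Tfrc) in the FPKM as deposited.

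In the list of mTORC1 control, where Ddit4 acts, 2 of 11 tested genes were lower and 9 did not pass, beside 1.24% of all tested genes called lower (median difference 0.05, and -0.01 under median ratio scaling). Txnip, which binds the Ddit4 protein, fell by 1.53 on the log2 scale (adjusted p = 2.84e-05), and Sesn1, a sestrin that restrains mTORC1 upon amino acid shortage, fell from 30.7 ± 2.199 to 22.1 ± 3.30 FPKM (-0.46, adjusted p = 0.0192). Sesn1 lost its call without a filter and without control replicate 1, 3, 4 or 5 (adjusted p up to 0.0625). The paralogue Ddit4l was below the filter, with 0.145 to 0.361 FPKM in control and 0 to 0.584 FPKM in PAMH hearts. Among 14 tested mitophagy genes, where Bnip3 acts, 1 was higher, 1 lower and 12 did not pass, beside 6.19% called among all tested genes. Their median difference was 0.13, and 0.04 under median ratio scaling and 0.01 with quantile normalization. Phb2, a prohibitin of the inner membrane, rose from 31.1 ± 2.47 to 41.5 ± 5.77 FPKM (0.40, adjusted p = 0.0308) and was called in 11 of 21 other settings. It lost its call without control replicate 1, 3, 4 or 5 or PAMH replicate 1 or 5 (adjusted p up to 0.0838). Settings that ended the call of Phb2 also included no filter, the replicate number as a block and leaving out PAMH replicates 4 and 5 together. Gabarapl1, an ATG8-family protein of the autophagosome, fell from 35.05 ± 1.997 to 25.8 ± 2.30 FPKM (-0.43, adjusted p = 0.00864) and was called in 20 of 21, lost with the replicate number as a block (adjusted p = 0.0516).

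Of 9 genes listed for glucocorticoid and FoxO input, 2 were lower and 7 did not pass, beside 1.24% of all tested genes called lower. The list mixes the glucocorticoid receptor gene Nr3c1, Foxo1 and Foxo3 with genes that respond to glucocorticoids, such as Fkbp5. Its median difference of -0.31 is therefore not a measure of input alone. Nr3c1 itself did not pass (0.19, limma adjusted p = 0.296). The 2 lower genes were Foxo3 (-0.46, adjusted p = 0.0126) and Foxo1 (-0.32, adjusted p = 0.0222). Both are forkhead factors, and Foxo3 is a known activator of Bnip3 in muscle. The part of these factors in the level of Bnip3, which was higher in the same hearts, was not tested. Foxo3 lost its call without PAMH replicates 4 and 5 together (adjusted p = 0.0512), the 1 of 21 other settings to end it. Foxo1 was called in 14 of 20, and it was lost without control replicate 3 or 5, PAMH replicate 5 or PAMH replicates 4 and 5 together, after rescaling to equal sums and with the replicate number as a block (up to 0.0716). Over all 6 lists 16 of 94 tested genes (17%, 9 higher and 7 lower) were past the threshold, beside 6.19% of all tested genes. The count was 9 or 10 without control replicate 1, 3, 4 or 5 and 28 without PAMH replicate 3. Some of these genes, among them Tfrc, Angptl4, Bhlhe40, Txnip, Foxo1 and Foxo3, were known to differ in these hearts when the lists were written, so the share of called genes is not independent evidence.

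The genes whose values followed those of Egln3 and Bnip3 most closely were sought after each group's mean had been taken off, over the 10 samples and 8385 protein-coding genes. For Egln3 these were Nme6 (r = 0.988), Tsc22d4 (r = 0.960) and Trp53inp2 (r = 0.942), of which Trp53inp2 was itself higher in PAMH hearts (difference 0.41, adjusted p = 0.0230). For Bnip3 they were Abcb1a (r = 0.973), Fli1 (r = 0.964) and Cdc27 (r = 0.960), none of them past the threshold (adjusted p = 0.957, 0.753 and 0.826). Rank correlations were lower, at 0.964, 0.927 and 0.879 for the 3 genes of Egln3. For those of Bnip3 they were 0.903, 0.842 and 0.806. All genes of a sample share its depth and scaling, and these genes were picked as the highest of 8385, so the values are descriptions only.

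Markers of other cell types were set beside these results. The summed level of 7 smooth muscle and pericyte markers was 86.9 to 126 FPKM in control and 137 to 183 FPKM in PAMH hearts, of 6 tested 1 past the threshold. That gene was Acta2, at 32.1 ± 5.95 and 82.5 ± 20.7 FPKM, while Rgs5 (52.5 ± 10.4 and 52.3 ± 10.8 FPKM), Tagln, Pdgfrb, Myh11 and Kcnj8 overlapped between the groups and did not pass. The sum of 4 mesothelial markers was 0.377 to 1.06 and 2.32 to 5.53 FPKM, with Upk3b past the threshold as the 1 tested. Fibroblast markers (68.6 to 90.7 FPKM in PAMH, 76.6 to 88.8 FPKM in control hearts) and macrophage markers (138 to 180 and 144 to 180 FPKM) overlapped, with Cd68 the 1 of 6 macrophage genes past the threshold. The part of these cell types in the levels of Egln3 and Bnip3 was not tested.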

How the data were processed

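RNA of 10 heart samples, 5 per group, was read from 1 deposited table of FPKM values that the authors computed. The submitters' processing notes name build mm10, the counter HTSeq 0.13.5, the aligner HISAT2 2.2.1, DESeq2 1.18.1, R 3.4.1, FastQC 0.11.9 and Trimmomatic 0.38, without saying which made the table. For the annotation, the strand setting and the FPKM tool: not given in the sources used here. Of 55335 identifiers, 55154 matched GENCODE vM21.

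The 9439 genes that averaged 1 FPKM or more were tested on log2(FPKM + 1) with limma 3.58.1 in R 4.3.3 (trended empirical Bayes, no covariate), with Benjamini-Hochberg adjustment over all of them and a threshold of 0.05. The procedure was tested on simulated data. FPKM are not counts, so no count test was run, and the fragment numbers given are estimates. The members and the gene lists were chosen with earlier results of these data known, and 1 listed gene is not reported here and was left out of the list counts. All 10 members were named, with list genes past the threshold (at most 8 per list by smallest p), 7 further genes whatever their values (Vegfa, Slc2a1, Ldha, Pgk1, Hif1an, Bnip3l, Ddit4l) and the 3 genes most like each called member. Alternatives were the pseudocount, filter, scaling, sample weights, robust fit, replicate block and left-out samples. Figures were drawn with matplotlib 3.10.9.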

Additional observations from a re-analysis of the deposited data

Results flagged for a closer look

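Among 80 groups of 5 values examined, 3 had 1 sample far from the other 4, and chance alone flags about 1 group in 20. Hif1a in PAMH replicate 4 was 5.41 FPKM, where the next lowest PAMH sample had 7.67 FPKM. Angptl4 in PAMH replicate 4 was 1.24 FPKM, where the next highest PAMH sample had 0.473 FPKM. The share of Egln2 in the prolyl hydroxylase sum was 9.23% in control replicate 3, where the next highest control had 7.98%.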

How the results depend on the processing

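Of 584 genes past the threshold, 2 were members and 16 belonged to the pathway lists. Without a filter these counts were 264, 0 and 8, with sample weights 1214, 4 and 26, and without PAMH replicates 4 and 5 together 357, 1 and 9. Members past the threshold numbered 1 under median ratio scaling and 1 with quantile normalization. With 1 sample left out, genes past the threshold ran from 274 (without control replicate 3) to 1126 (without PAMH replicate 3), members from 1 to 4 and list genes from 9 to 28. The replicate numbers did not pair the samples (correlations of same-numbered deviations from -0.195 to 0.16), and with the number as a block the counts were 239, 1 and 8.

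Signs of 5 named genes turned, with values near 0, and the cause was not tested. Hif1a was -0.0041 with quantile normalization. Arnt was 0.00096 with sample weights, 0.0087 without PAMH replicates 4 and 5, and between -0.11 and 0.012 with 1 sample left out. Ldha was -0.0093 under median ratio scaling, -0.028 with quantile normalization and -0.00094 without PAMH replicates 4 and 5. Pgk1 was -0.0598 under median ratio scaling, -0.0664 with quantile normalization, and between -0.0078 and 0.0812 with 1 sample left out. Hif1an was 0.0237 after rescaling to equal sums, 0.0178 with sample weights, 0.0388 without PAMH replicates 4 and 5, and between -0.045 and 0.0044 with 1 sample left out. Hif3a was not tested because it was below the filter of 1 FPKM.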

Other observations

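Some further genes were picked after their values were seen. Cul2, the cullin scaffold of the VHL ligase complex, was at 5.96 to 6.64 FPKM in control and 6.79 to 8.31 FPKM in PAMH hearts, without overlap, and did not pass (difference 0.23, limma adjusted p = 0.0679). Rbx1, the RING subunit of the same complex, was at 8.06 to 8.83 FPKM and 8.63 to 11.9 FPKM, which overlapped (0.21, limma adjusted p = 0.166). Epo, the erythropoietin gene and a HIF-2 target, was at 1.76 to 2.49 FPKM in the controls. PAMH replicates 1 to 5 had 0, 2.37, 0, 4.69 and 1.64 FPKM. The groups overlapped and Epo did not pass (difference -0.46, SE 0.41, limma adjusted p = 0.520). Its annotated entry spans chromosome 5, 137483020 to 137533242. Whether reads of other genes in that span were counted in it was not examined.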
